A study of Mus musculus with 8 samples.

Results

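The MBNL, RBFOX2, PTBP, CELF and QKI proteins are RNA-binding regulators of alternative splicing, and their genes were followed here through the first days of reprogramming of mouse embryonic fibroblasts (MEFs) to induced pluripotent stem (iPS) cells. The members were chosen by gene symbol: *Mbnl1*, *Mbnl2*, *Mbnl3*, *Rbfox2*, *Ptbp1*, *Ptbp2*, *Ptbp3*, *Celf1*, *Celf2* and *Qk*, which are 10 of the 18990 genes in the deposited table. All 10 passed the filter on low values. Positions are given on GRCm38 (mm10), from GENCODE M21. Wild-type BL6 MEFs were transduced with lentiviruses for the inducible tet-STEMCCA cassette (Oct4, Sox2, Klf4 and c-Myc) and for rtTA, so all groups carried the same transgenes. They were then transfected with pooled siRNAs at 40 nM against *Ncor1* or *Oct4*. Doxycycline was given in a medium with chiron, an Alk5 inhibitor, ascorbic acid and LIF, and RNA was collected at day 3 or day 6. The groups were *siNcor1* day 3, *siOct4* day 3, *siNcor1* day 6 and *siOct4* day 6, with 2 biological replicates in each, which makes 8 libraries. Control libraries were not analysed here, so each comparison sets one knockdown against the other or one day against the other. The cultures were transduced populations and not clones, and in such bulk samples fewer cells of a type and less RNA per cell cannot be told apart.

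Muscleblind-like (MBNL) proteins bind YGCY motifs in pre-mRNA and are known for promoting splicing patterns of differentiated cells, and in mouse and human stem cells MBNL1 and MBNL2 repress splice isoforms typical of pluripotency. PTBP1 binds pyrimidine-rich tracts and mostly represses exons, PTBP2 is its neural paralogue and PTBP3 its paralogue first described in blood cells. CELF1 and CELF2 bind GU-rich elements and often act against MBNL proteins on the same exons, RBFOX2 binds UGCAUG, and QKI, encoded by *Qk*, binds ACUAA elements and is associated with mesenchymal splicing. The values below are RNA levels of genes, and the splice isoforms themselves were not analysed here.

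The 8 libraries held between 7735742 and 16445192 reads on genes. A single member had between 99 and 6498 reads in a library, and the fewest were those of *Celf2* at day 6, with 99 to 145. The non-coding RNA *Gm26917* took 15.5% to 16.6% of the reads at day 3 and 20.3% to 29.1% at day 6. The deposited CPM are reads scaled to an effective library size, which was between 0.951 and 1.05 times the reads on genes and lowest in the library with the largest *Gm26917* share. The siRNA labels were checked on their own targets. *Ncor1* was lower in *siNcor1* than in the *siOct4*-labelled libraries at day 3 (log2 difference, *siOct4* minus *siNcor1*, 0.74 ± 0.12 SE, adjusted p = 0.0139, limma), while at day 6 the difference was −0.04 ± 0.12. *Pou5f1*, which encodes OCT4, was not lower in the *siOct4*-labelled libraries: the same difference was −0.08 ± 0.16 at day 3 and 1.78 ± 0.16 at day 6 (adjusted p = 0.000109). Reads from the transgene and from the endogenous gene cannot be told apart in these values. The paper's RT-qPCR time course reports *Oct4* mRNA as silenced before day 3 and soon recovering, which the paper ascribes to strong expression from the cassette. Because the values here do not show the knockdown, these libraries are called the *siOct4*-labelled libraries throughout. Every direction given for them rests on that label.

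The proximal promoters of the members whose levels follow are shown first, because the cassette includes c-Myc, whose protein binds the E-box CACGTG as a dimer with MAX, and Klf4, a member of the family that binds GC-rich boxes. RefSeq windows on GRCm38.p6, from 250 bases before to 50 bases after an annotated start, matched 8 of the 10 members with 13 windows in all. *Rbfox2* and *Ptbp3* had none. Windows of both starts of *Mbnl1*, of *Mbnl2* and of *Ptbp1* are printed 5′ to 3′ on the strand of the gene, which is the plus strand in each case, with E-boxes (CACGTG) and GC boxes (GGGCGG, on either strand) in capitals.
Mbnl1, chr3:60472580-60472879: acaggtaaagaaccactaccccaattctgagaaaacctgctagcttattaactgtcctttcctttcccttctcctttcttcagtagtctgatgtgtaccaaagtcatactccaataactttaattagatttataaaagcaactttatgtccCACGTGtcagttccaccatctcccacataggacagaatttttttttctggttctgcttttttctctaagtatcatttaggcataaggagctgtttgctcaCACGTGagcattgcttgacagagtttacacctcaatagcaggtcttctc
Mbnl1, chr3:60500929-60501228: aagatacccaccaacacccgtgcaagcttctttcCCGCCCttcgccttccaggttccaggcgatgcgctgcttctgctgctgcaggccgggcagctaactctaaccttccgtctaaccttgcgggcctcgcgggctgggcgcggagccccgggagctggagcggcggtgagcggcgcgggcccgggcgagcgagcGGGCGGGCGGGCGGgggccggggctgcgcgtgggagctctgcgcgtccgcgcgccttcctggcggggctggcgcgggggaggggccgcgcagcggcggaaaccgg
Mbnl2, chr14:120275419-120275718: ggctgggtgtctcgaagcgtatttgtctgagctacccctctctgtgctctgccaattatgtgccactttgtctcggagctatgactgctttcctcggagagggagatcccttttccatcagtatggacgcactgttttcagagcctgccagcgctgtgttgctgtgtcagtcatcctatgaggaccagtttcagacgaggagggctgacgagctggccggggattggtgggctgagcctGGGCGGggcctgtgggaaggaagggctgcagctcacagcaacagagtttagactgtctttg
Ptbp1, chr10:79854182-79854481: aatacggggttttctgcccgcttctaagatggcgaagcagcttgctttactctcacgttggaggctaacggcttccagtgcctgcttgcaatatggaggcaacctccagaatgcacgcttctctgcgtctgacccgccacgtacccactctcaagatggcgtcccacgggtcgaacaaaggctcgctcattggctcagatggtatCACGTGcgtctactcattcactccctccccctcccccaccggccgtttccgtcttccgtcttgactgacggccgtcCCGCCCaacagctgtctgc

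The first window of *Mbnl1* held 2 E-boxes, which began 99 bases before the annotated start and 1 base after it, and *Ptbp1* held 1, beginning 45 bases before its start. These were the E-boxes found among the 13 windows of the members (2 of 13), and 7.15% of all 32851 windows of the RefSeq table held this sequence. The first *Mbnl1* window had a GC content of 39.3% and no GC box, whereas the second had a GC content of 75% and 4 overlapping or separate GC boxes. The GC box was found in 8 of the 13 windows and in 35.7% of all windows. In the windows shown, no E-box overlapped a GC box. The octamer ATGCAAAT (1.74% of all windows) and the SOX-type sequence CATTGT (12.6%) were in none of the 13, and the AP-1 sequence TGANTCA (7.81%) and the TEAD sequence GGAATG (14.7%) were each in 1, both in windows of *Celf2*. All sequences were searched on both strands, and a match describes letters in a window and not a site in use.

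To order the members by level, CPM were divided by the length of the union of their exons in kb. *Ptbp1* was the highest of the 10 in every group, with 76.1 ± 4.9 (SD) CPM per kb in *siNcor1* at day 3, followed by *Rbfox2* at 33.3 ± 0.086 and *Celf1* at 23.7 ± 1.0. *Mbnl1* (10.9), *Ptbp3* (10.5), *Qk* (10.1) and *Mbnl2* (9.88 CPM per kb) formed a middle group whose replicate ranges overlapped in part, so their order was not resolved. *Ptbp2* (3.24) and *Mbnl3* (2.93) overlapped in the same way, and *Celf2* was lowest at 1.16 CPM per kb. At day 6 *Ptbp1*, *Rbfox2* and *Celf1* kept the first 3 places and *Celf2* the last in both knockdowns. In *siNcor1* at day 6 the middle order was *Mbnl2* (9.87), *Ptbp3* (8.01), *Qk* (6.60) and *Mbnl1* (5.40 CPM per kb), with no overlap of replicates between neighbours. In the *siOct4*-labelled libraries at day 6, *Qk*, *Mbnl2*, *Ptbp3* and *Mbnl1* lay between 4.84 and 5.52 CPM per kb, and each overlapped its neighbour. These positions depend on the length that is used, and with the median length of coding transcripts *Mbnl1* came next after *Ptbp1* and *Rbfox2* in all 4 groups.

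**Figure D1:**
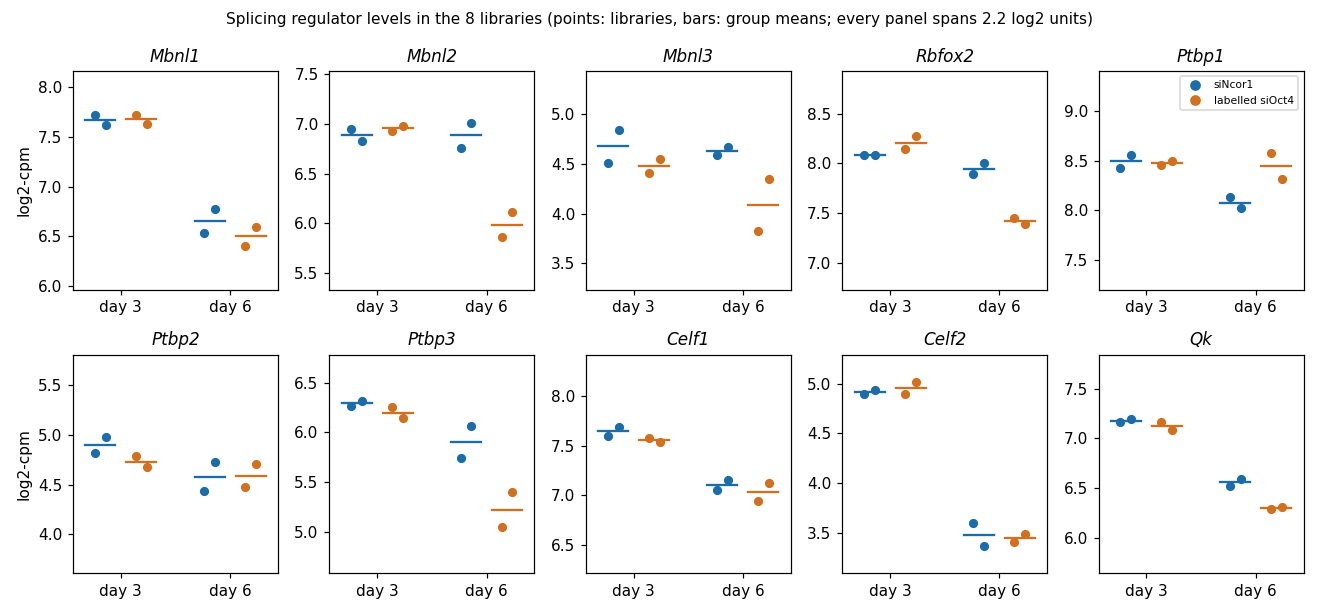
Log2-cpm of the 10 splicing regulators (y axis) at day 3 and day 6 (x axis) in *siNcor1* (blue) and in the *siOct4*-labelled libraries (orange), with 1 point per library and a bar at each group mean; each panel spans the same log2 range. *Mbnl1*, *Celf1*, *Celf2* and *Qk* are lower at day 6 in both colours, while *Mbnl2*, *Rbfox2* and *Ptbp3* are separated by knockdown at day 6.

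The first comparison asked whether the knockdowns differed in these regulators at day 3. They were close to each other: differences (*siOct4*-labelled minus *siNcor1*) ran from −0.19 for *Mbnl3* to 0.12 for *Rbfox2* on the log2 scale. With limma 0 of the 10 members passed an adjusted p of 0.05, against 1.07% of the 13866 genes tested. None reached an unadjusted p of 0.05 either, a level that 10.5% of all genes reached, and voom on the recovered reads also called 0 members. *Mbnl1*, for instance, had log2-cpm of 7.72 and 7.62 in *siNcor1* and 7.72 and 7.63 in the *siOct4*-labelled libraries. The groups of 4 members did not overlap, compared with 43.4% of all genes. The 95% intervals of the 10 differences all included 0, with the widest for *Mbnl3* (−0.60 to 0.21) and the narrowest for *Qk* (−0.29 to 0.19).

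The change from day 3 to day 6 was then compared within each knockdown. *Mbnl1*, *Celf1*, *Celf2* and *Qk* fell in both. In *siNcor1*, 5 of the 10 members were called and all 5 were lower at day 6 (34.8% of all genes were called, 20.9% as lower). In the *siOct4*-labelled libraries, 7 were called, again all lower (52.7% of all genes, 30.5% as lower). The median log2 change of the 10 was −0.40 in *siNcor1* and −0.80 in the *siOct4*-labelled libraries, beside −0.07 and −0.08 over all genes tested. More abundant genes tended lower: among those with a mean of at least 10 CPM, which include all 10 members, the medians were −0.15 and −0.19. Of their calls 30.8% and 33.8% were higher, beside 39.8% and 42.1% over all genes tested. In each knockdown 8 of the 10 had day 6 libraries wholly below the day 3 libraries, against 41.7% and 42.1% of all genes. Without *Gm26917* in the library totals the median of all genes in the *siOct4*-labelled libraries moved from −0.08 to 0.06 and that of the members from −0.80 to −0.67, and the share of higher calls among all genes called rose from 42.1% to 52.5%.

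*Celf2* (chr2:6539694-7509563, minus strand), a regulator of splicing in muscle, heart and T cells, fell most. Its log2-cpm was 4.90 and 4.94 in *siNcor1* and 4.90 and 5.02 in the *siOct4*-labelled libraries at day 3, and 3.60 and 3.37 against 3.41 and 3.49 at day 6. All 4 libraries of day 6 lay more than 1 log2 unit below all 4 of day 3, and the knockdowns overlapped at each day. The fold was 2.71 in *siNcor1* (log2 change −1.44 ± 0.15 SE, adjusted p = 5.87e-05, limma) and 2.85 in the *siOct4*-labelled libraries (−1.51 ± 0.15, adjusted p = 1.02e-05). Its closest relative in the set, *Celf1* (chr2:90940382-91019497, plus strand), which is broadly expressed, fell less. *Celf1* had 7.60 and 7.69 in *siNcor1* and 7.57 and 7.54 in the *siOct4*-labelled libraries at day 3, then 7.05 and 7.15 against 6.94 and 7.13 at day 6. The days did not overlap, and the knockdowns did at day 6. Its log2 changes were −0.54 ± 0.12 (adjusted p = 0.00421) and −0.52 ± 0.12 (adjusted p = 0.00270). The first of these calls was lost without *siNcor1* day 6 replicate 1 (adjusted p = 0.0526).

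*Mbnl1* (chr3:60472830-60629750, plus strand) fell by about 1 log2 unit. It had 7.72 and 7.62 in *siNcor1* and 7.72 and 7.63 in the *siOct4*-labelled libraries at day 3, and 6.53 and 6.78 against 6.41 and 6.60 at day 6. Every day 6 library was below every day 3 library, and the knockdowns overlapped at both days. In *siNcor1* the level fell by 50.5% (log2 change −1.01 ± 0.13, adjusted p = 0.000182), and in the *siOct4*-labelled libraries it fell by 55.8% (−1.18 ± 0.13, adjusted p = 1.92e-05). *Qk* (chr17:10202601-10319854, minus strand), whose protein also controls circular RNA formation in mesenchymal cells, showed a similar course. Its log2-cpm was 7.16 and 7.19 in *siNcor1* and 7.17 and 7.08 in the *siOct4*-labelled libraries at day 3, then 6.52 and 6.59 against 6.29 and 6.31 at day 6. The *siOct4*-labelled libraries were the lowest at day 6 without overlap. The changes were −0.62 ± 0.11 (adjusted p = 0.00143) and −0.82 ± 0.11 (adjusted p = 7.97e-05). The difference between the knockdowns at day 6, −0.26, did not pass (95% interval −0.50 to −0.02, adjusted p = 0.0942).

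At day 6 the knockdowns differed in other members. *Mbnl2*, *Rbfox2*, *Ptbp3* and *Mbnl3* were lower in the *siOct4*-labelled libraries than in *siNcor1*, and *Ptbp1* was higher. These are 5 called members of 10, against 30.7% of all genes tested (12.1% as higher, 18.6% as lower). The median difference of the 10 was −0.21, beside −0.03 over all genes. The groups of 6 members did not overlap, against 64.7% of all genes. The calls of *Mbnl3* and *Ptbp1* were close to the threshold, and each was lost in 11 of 19 alternative fits, including those without the trend of the variance, without the filter or with only the groups compared, which left 3 called members.

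*Mbnl2* (chr14:120275669-120431697, plus strand) showed the largest of these differences. Its log2-cpm was 6.95 and 6.83 in *siNcor1* at day 3 and 6.76 and 7.01 at day 6, while the *siOct4*-labelled libraries went from 6.93 and 6.98 to 5.86 and 6.11. The last 2 libraries lay below the other 6. At day 6 the level was 46.3% lower than in *siNcor1* (log2 difference −0.90 ± 0.13 SE, adjusted p = 0.000857, limma), a call that held in all 19 alternatives. The day change was −0.01 in *siNcor1*, with a 95% interval from −0.29 to 0.28, and −0.97 ± 0.13 in the *siOct4*-labelled libraries (adjusted p = 9.92e-05). The test of the difference between these changes gave −0.96 ± 0.19 (adjusted p = 0.00499), and it too held in every alternative run. In this test 2 of the 10 members were called, both lower, against 20.7% of all genes (12.9% as lower), and the median of the members was −0.18 beside 0.01 over all genes.

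The second of these members was *Rbfox2* (chr15:77078990-77307004, minus strand), a regulator of splicing in mesenchymal and muscle cells. It had 8.09 and 8.08 in *siNcor1* and 8.14 and 8.27 in the *siOct4*-labelled libraries at day 3, and 7.90 and 7.999 against 7.46 and 7.39 at day 6. The *siOct4*-labelled libraries were thus the highest at day 3 and the lowest at day 6. At day 6 the difference was −0.53 ± 0.11 (adjusted p = 0.00591), and the change of the difference between days was −0.65 ± 0.16 (adjusted p = 0.0168). The day change was −0.79 ± 0.11 in the *siOct4*-labelled libraries (adjusted p = 0.000158) and −0.13 in *siNcor1* (95% interval −0.38 to 0.11). Without *siNcor1* day 6 replicate 2 the difference at day 6 lost its call (adjusted p = 0.0773). The call of the change was lost in 4 of 18 alternatives: without the variance trend, and without replicate 2 of *siNcor1* day 3, of *siOct4* day 3 or of *siNcor1* day 6, with adjusted p up to 0.0933.

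*Ptbp3* (chr4:59471868-59549364, minus strand) had 6.27 and 6.32 in *siNcor1* and 6.25 and 6.14 in the *siOct4*-labelled libraries at day 3, and 5.74 and 6.06 against 5.04 and 5.40 at day 6. All 4 libraries of day 6 were below those of day 3, and those labelled *siOct4* were lowest. At day 6 the difference was −0.68 ± 0.15 (adjusted p = 0.00670, lost at 0.0938 without *siNcor1* day 6 replicate 2). The day change was called in the *siOct4*-labelled libraries (−0.97 ± 0.15, adjusted p = 0.000240) and not in *siNcor1* (−0.39 ± 0.15, adjusted p = 0.0621), but the difference between these changes did not pass (−0.58 ± 0.21, adjusted p = 0.0733). When replicate numbers entered the fit as a block, the latter values became 0.0409 and 0.0477. The day change in *siNcor1* was called in 5 of 19 alternatives, which include only the groups compared (0.0192), voom (0.0488) and the leaving out of either *siOct4* day 6 library. *Mbnl3* (chrX:51117269-51206532, minus strand), the least abundant MBNL gene, had 4.51 and 4.84 in *siNcor1* and 4.41 and 4.55 in the *siOct4*-labelled libraries at day 3, and 4.59 and 4.67 against 3.83 and 4.35 at day 6. Its replicates labelled *siOct4* differed from each other by about as much as the groups did. The difference at day 6 was −0.54 ± 0.19 (adjusted p = 0.0450), and its day change was −0.05 ± 0.19 in *siNcor1* and −0.39 ± 0.19 in the *siOct4*-labelled libraries (adjusted p = 0.0955, or 0.0441 with the replicate block).

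*Ptbp1* (chr10:79854427-79864771, plus strand), the dominant PTB protein gene of non-neural cells, took a different course from the rest. Its log2-cpm was 8.43 and 8.56 in *siNcor1* and 8.45 and 8.50 in the *siOct4*-labelled libraries at day 3, and 8.13 and 8.02 against 8.58 and 8.32 at day 6. The 2 libraries of *siNcor1* at day 6 lay below the other 6, which overlapped one another. In *siNcor1* the level fell by 25.03% (log2 change −0.42 ± 0.13, adjusted p = 0.0263), and this call was lost in 7 of 19 alternatives, among them the leaving out of any *siNcor1* library. In the *siOct4*-labelled libraries the change was −0.03, with a 95% interval from −0.31 to 0.26. At day 6 *Ptbp1* was 1.29-fold higher in the *siOct4*-labelled libraries (0.37 ± 0.13, adjusted p = 0.0469), and the change of the difference between days did not pass (0.39 ± 0.18, adjusted p = 0.148). The day 6 call was lost on leaving out any 1 library other than *siOct4* day 6 replicate 2, with adjusted p up to 0.265. Exons of *Ptbp1* overlap *Plppr3* and *E130317F20Rik* on the opposite strand, which had 61 to 319 and 59 to 188 reads per library beside 2850 to 6498 for *Ptbp1*. *Ptbp2* (chr3:119718742-119784466, minus strand) had 4.82 and 4.98 in *siNcor1* and 4.79 and 4.68 in the *siOct4*-labelled libraries at day 3, and 4.44 and 4.72 against 4.47 and 4.71 at day 6. It passed the limma test in none of the 5 comparisons, here or in any alternative run, and its largest value was a day change of −0.31 ± 0.15 in *siNcor1* (unadjusted p = 0.0632, adjusted p = 0.133).

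**Figure D2:**
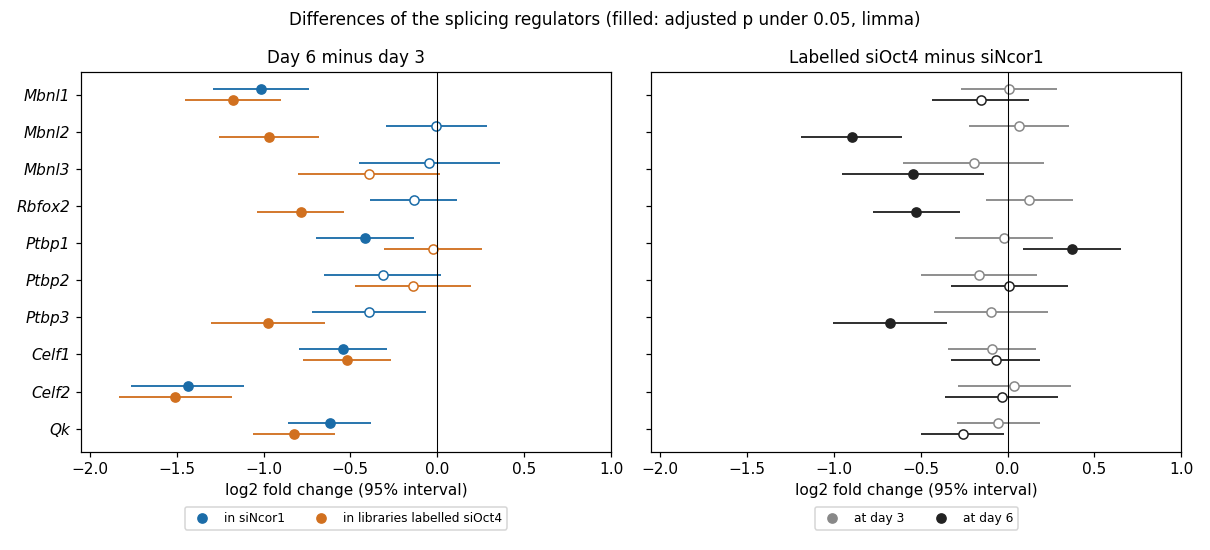
Log2 fold changes of the 10 splicing regulators with 95% intervals (x axis), for day 6 minus day 3 in each knockdown (left) and for the *siOct4*-labelled libraries minus *siNcor1* at each day (right), with filled points for an adjusted p under 0.05 in limma. On the left *Mbnl2* and *Rbfox2* differ between the knockdowns, at −0.01 against −0.97 and −0.13 against −0.79, and on the right none of the day 3 points is filled.

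Within the families the balance of paralogues moved with these changes. Per length of exon union, *Mbnl1* made up 45.9% ± 1.0 (SD) of the summed MBNL level in *siNcor1* at day 3 and 45.9% ± 2.0 in the *siOct4*-labelled libraries. At day 6 its share was 29.8% ± 0.34 in *siNcor1* and 40.1% ± 1.6 in the *siOct4*-labelled libraries. The share of *Mbnl2* at day 6 was 54.5% ± 0.68 in *siNcor1* and 43.8% ± 0.37 in the *siOct4*-labelled libraries, above that of *Mbnl1* in both. Which of them is the larger depends on the length used: with the median length of coding transcripts *Mbnl1* held 45.8% and *Mbnl2* 41.8% in *siNcor1* at day 6, and 57.1% and 31.1% in the *siOct4*-labelled libraries. The summed MBNL level went from 23.7 to 18.1 CPM per kb in *siNcor1*, and from 23.8 to 12.1 in the *siOct4*-labelled libraries. The log2 ratio of *Mbnl1* to *Mbnl2* CPM, which needs no length, fell from 0.78 to −0.23 in *siNcor1* and from 0.72 to 0.52 in the *siOct4*-labelled libraries. Among the PTBP genes, *Ptbp1* held 84.3% to 85.5% of the summed level in 3 groups and 90.5% ± 2.4 in the *siOct4*-labelled libraries at day 6, where *Ptbp3* held 6.23% ± 1.7 instead of 11.2% to 11.9%. The log2 ratio of *Celf1* to *Celf2* CPM rose alike in both knockdowns, from 2.73 to 3.64 and from 2.603 to 3.60. These shares are descriptions of 2 libraries per group, and no test was run on them.

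**Figure D3:**
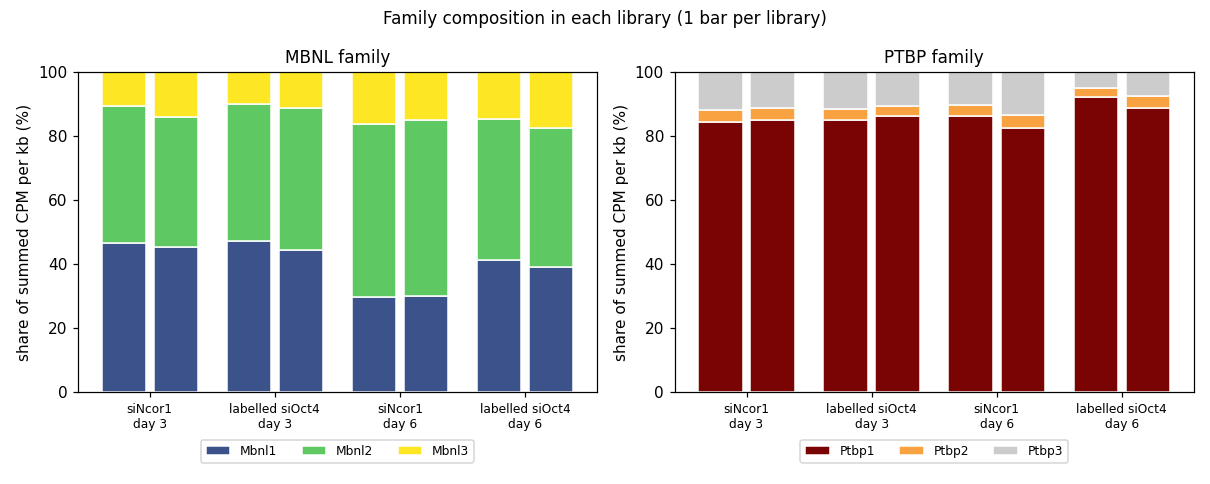
Shares of each paralogue in the summed CPM per kb of exon union of the MBNL family (left) and the PTBP family (right), in percent on the y axis, with 1 bar for each of the 8 libraries along the x axis. The *Mbnl1* share is smallest in *siNcor1* at day 6 (29.6% and 30.1%), and the *Ptbp3* share is smallest in the *siOct4*-labelled libraries at day 6 (5.02% and 7.44%).

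Other splicing genes were taken from fixed lists, and their counts are read beside the shares of all genes called, which were 20.9% lower and 13.8% higher for the day change in *siNcor1* and 30.5% lower and 22.2% higher in the *siOct4*-labelled libraries. Of 23 hnRNP genes, whose proteins coat pre-mRNA, 15 were lower and 0 higher at day 6 in *siNcor1* (median −0.47), with *Hnrnpd* lowest at −1.09, and 11 were lower and 2 higher in the *siOct4*-labelled libraries (median −0.24), from *Syncrip* at −0.77 to *Hnrnpc* at 0.79. Of 12 SR protein genes tested, which mostly promote exon inclusion, 6 were lower and 0 higher in *siNcor1*, with *Srsf4* lowest at −0.62, whereas in the *siOct4*-labelled libraries 3 were higher, led by *Srsf3* at 1.05, and 1, *Srsf9*, was lower at −0.33. For 40 core spliceosome genes the counts were 4 higher and 18 lower in *siNcor1*, from *Snrpa1* at −0.92 to *Snrpg* at 0.78. In the *siOct4*-labelled libraries 10 of the 40 core genes were higher and 8 lower, which is close to the share of higher calls over all genes and below that of lower calls, from *Sf3b1* at −0.80 to *Sf3b6* at 1.54. In the comparison at day 6, 12.1% of all genes were higher and 18.6% lower in the *siOct4*-labelled libraries. There 13 of the 40 core genes were higher and 0 lower (*Snrpd2* at 0.83, median 0.29). The 2 of 23 hnRNP genes that were higher, with *Hnrnpa1* at 0.36, and 1 of 12 SR genes, *Srsf2* at 0.70, lay below the share over all genes. Of 23 other broadly expressed regulators 13 fell in *siNcor1*, led by *Taf15* at −0.91, and 10 fell in the *siOct4*-labelled libraries, again led by *Taf15*, at −0.79, while *Rbm38* rose there by 0.95. At day 6 *Rbm38* (0.91) and 2 other genes of this list were higher in the *siOct4*-labelled libraries and *Tia1* (−0.46) was lower. These counts are close to the share of higher calls over all genes and below that of lower calls. In these lists 0 genes were called at day 3 by limma.

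Of 3 regulators of epithelial splicing, 3 rose from day 3 to day 6 in *siNcor1* and 2 in the *siOct4*-labelled libraries. *Esrp1*, which sets epithelial isoforms, was at 2.28 CPM in *siNcor1* and 0.486 CPM in the *siOct4*-labelled libraries at day 3 (log2 difference −1.996, adjusted p = 0.00591) and near 19.9 CPM in both at day 6. Its log2 change was 3.04 ± 0.26 and 5.05 ± 0.26. *Esrp2* rose by 1.18 and 1.98 on the log2 scale. *Rbm47* rose from 2.17 to 9.42 CPM in *siNcor1* and was at 2.86 and 2.38 CPM in the *siOct4*-labelled libraries, and the test of the difference between these changes was called (−2.38 ± 0.46, adjusted p = 0.00474). Among cofactors of PTBP1, *Raver2* went from 9.48 to 4.04 CPM in *siNcor1* and from 4.24 to 11.3 CPM in the *siOct4*-labelled libraries, and the change of the difference was 2.58 ± 0.30 (adjusted p = 0.000634). *Matr3* rose in the *siOct4*-labelled libraries (0.56 ± 0.16, adjusted p = 0.0128), and *Raver1* was below the filter with 0 to 7 reads. Of the paralogues outside the set, *Rbfox1*, *Celf3*, *Celf4* and *Celf5* were at 0.540 to 26.8 CPM in group means, with *Celf4* higher in the *siOct4*-labelled libraries at day 6 (0.53, adjusted p = 0.0391) and *Rbfox1* lower at day 6 in those libraries (−1.64, adjusted p = 0.00670). *Rbfox3* and *Celf6* were not among the genes of the table. Of 9 tissue-restricted regulators tested, 4 were lower at day 6 in *siNcor1*, with *Rbm24* at −1.74. In the *siOct4*-labelled libraries 4 were higher and 3 lower, with the neuronal gene *Elavl3* at 3.72 and *Nova1* at −1.30. At day 6, 5 of the 9 were higher than in *siNcor1* (*Elavl3* at 1.75) and 0 lower, against 12.1% and 18.6% of all genes.

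**Figure D4:**
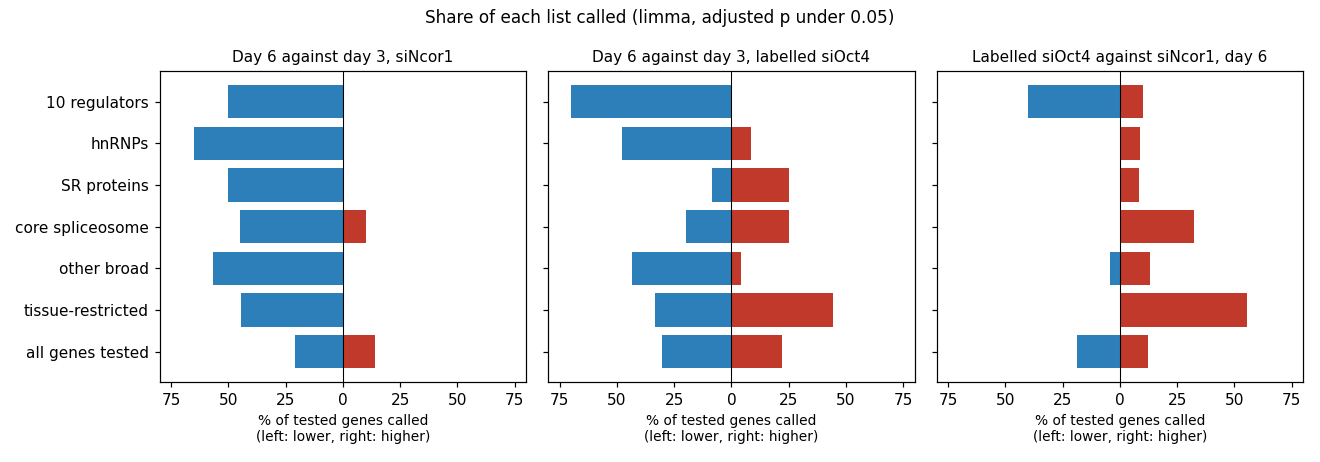
Percent of the tested genes of each splicing list called as lower (blue, to the left) or higher (red, to the right) by limma at an adjusted p of 0.05, for the day change in each knockdown and for the knockdown difference at day 6, with all 13866 genes in the bottom row. The 10 regulators have 5, 7 and 4 lower calls in the 3 panels, while at day 6 core spliceosome genes have 13 higher and 0 lower calls.

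Markers of cell types moved along with these comparisons. The summed CPM of 10 fibroblast markers lay between 10862 and 11198 in *siNcor1* and between 14121 and 16471 in the *siOct4*-labelled libraries at day 3, and fell to between 7473 and 7894 and between 4301 and 4365 at day 6. At day 6, 8 of the 10 were lower in the *siOct4*-labelled libraries than in *siNcor1* and 0 higher, against 18.6% and 12.1% of all genes. This is the direction of *Mbnl2*, *Rbfox2* and *Ptbp3*, and it was not particular to fibroblast markers. Of 7 epithelial markers, 6 were also lower in this comparison and 0 higher. In the day change of *siNcor1*, however, 3 fibroblast markers fell, led by *Col1a1* at −1.15, and 5 rose, led by *Lum* at 2.70, and in the *siOct4*-labelled libraries 6 fell and 2 rose. The 7 epithelial markers summed to 87.8 to 89.8 and 36.7 to 44.6 CPM at day 3, and to 683 to 715 and 290.0 to 328 CPM at day 6. Neuronal markers, of which 6 of 8 were in the table, summed at day 3 to 98.7 to 114 CPM in *siNcor1* and 143 to 146 CPM in the *siOct4*-labelled libraries. At day 3, 2 of the 6 were called higher in the *siOct4*-labelled libraries (*Tubb3* at 0.82 and *Stmn2* at 0.72) and 0 lower, against 0.375% of all genes higher. The others, *Map2*, *Syt1*, *Elavl3* and *Elavl4*, had lower means in those libraries without a call. The median difference of the list was −0.41, so the higher day 3 sum describes *Tubb3* and *Stmn2* and not neuronal markers as a set. At day 6 the sums were 102 to 114 CPM in *siNcor1* and 192 to 226 CPM in the *siOct4*-labelled libraries, with 4 higher and 0 lower. The 4 endothelial markers summed to 40.6 to 44.3 CPM at day 3 and 16.4 to 20.9 CPM at day 6 over both knockdowns. *Tek* made up most of these sums, with 41.2 CPM in *siNcor1* and 40.0 CPM in the *siOct4*-labelled libraries at day 3. It was lower at day 6 in each (−1.22 and −1.31, both called). *Pecam1*, *Cdh5* and *Kdr* were below the filter, with means of 0.257, 0.147 and 0.749 CPM, so the sums describe *Tek* and not endothelial markers as a set. The skeletal muscle markers, 4 of 7 in the table, summed to 36.6 to 99.7 CPM at day 3 and 21.7 to 30.2 CPM at day 6. In *siNcor1* only *Des* of the 4 was called lower (−0.95). In the *siOct4*-labelled libraries 2 of the 4 were lower, with *Des* at −2.25, and 0 were higher in either knockdown. *Ttn* did not fall in the *siOct4*-labelled libraries (6.28 and 6.32 CPM at day 3 and day 6). *Myh3* had means of 2.37 and 2.48 CPM there, with 0 to 94 reads over all libraries. Its day 3 replicates in that group had a log2 SD of 3.65, so its direction was not resolved. The haematopoietic markers, 3 of 6 in the table, summed to 4.35 to 8.48 CPM at day 3 and 7.64 to 9.996 CPM at day 6. *Cd68* was the largest part of these sums and was called higher at day 6 in each knockdown (0.78 and 1.04). *Csf1r* was called lower in the *siOct4*-labelled libraries (−1.58), and *Adgre1* was below the filter with 0 to 6 reads. The sums therefore do not describe haematopoietic markers as a set. No marker in the table was at 0 reads over a whole group. The part of these marker changes in the levels of the splicing regulators was not tested.

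Across the 8 libraries, which share the same 4 groups, *Mbnl1* followed *Celf1* (Pearson r = 0.98), *Qk* (0.98) and *Celf2* (0.97) most closely among the members, while *Mbnl2* followed *Rbfox2* (0.94) and *Ptbp3* (0.94). *Ptbp1* followed none of them above 0.58, and its lowest value, with *Mbnl3*, was a weak −0.35. Among the other 13856 genes tested, those most like *Mbnl1* were *Nfatc3* (0.999), *Picalm* (0.996) and *Mfn1* (0.995), and 718 genes had an r over 0.95 with it. For *Ptbp1* they were *Fbxo21* (0.989), *Ret* (0.986) and *Pfas* (0.984), with 46 genes over 0.95. A correlation over these few libraries mainly describes the 4 group means.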

How the data were processed

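The authors depleted ribosomal RNA, sequenced paired reads, aligned them with STAR 2.5.2b to mm10 (GRCm38) and deposited log2-cpm values computed with edgeR 3.20.9, per the labels and the study's methods. The tool that counted reads and its strand setting are not given in the sources used here, so reads of genes that overlap on opposite strands, or of similar paralogues, could be shared. The deposited values contain a constant of 0.136 CPM, and after its subtraction 100% of values were whole reads within 0.1 read. Here 13866 of 18990 genes, those whose mean reached 1 CPM, were fitted with limma 3.58.1 in R 4.3.3 (lmFit, eBayes with a variance trend) as 4 group means over the 8 libraries, two-sided, with Benjamini-Hochberg adjustment over all genes at 0.05. Fold changes are on the log2-cpm scale. Libraries of a group differed beyond counting error, with a chi-square of 9.48 to 21.3 per degree of freedom. Lengths came from GENCODE M21. Intervals are at 95%, and all rest on 2 libraries per group.

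The members and lists were chosen with earlier results of these data known. All 10 members were named, with *Ncor1* and *Pou5f1*, the epithelial regulators, family paralogues and PTBP1 cofactors, the called gene with the largest change in each direction from the other splicing lists, and the 3 genes most like *Mbnl1* and *Ptbp1*. The alternatives were no variance trend, median centring, quantile normalization, library totals without *Gm26917*, no filter, a minimum mean of 10 CPM, constants of 0.1 and 1 CPM before the log2, the replicate block, only the groups compared, voom on recovered reads and each of the 8 libraries left out. Both other lengths for levels per kb, the median and the longest coding transcript, were added after the data were seen.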

Additional observations from a re-analysis of the deposited data

Results flagged for a closer look

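In 2 members the change from day 3 to day 6 differed between the knockdowns by the test of the difference itself. For *Mbnl2* the day change in the libraries labelled *siOct4* was lower than that in *siNcor1* by a log2 difference of −0.96 (adjusted p = 0.00499, limma). For *Rbfox2* the same difference was −0.65 (adjusted p = 0.0168). The fibroblast marker sum given in the report also fell further in the libraries labelled *siOct4*. That sum describes mainly its most abundant genes, such as *Col1a1* and *Fn1*. By single genes, 5 of the 10 markers were called higher and 3 lower at day 6 in *siNcor1*. In the libraries labelled *siOct4*, 2 were higher and 6 lower. The part of these markers in the differences of *Mbnl2* and *Rbfox2* was not tested.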

How the results depend on the processing

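Of 50 results for single members, 19 were called, 12 of these kept their call under all alternatives run and none of the 19 changed sign. Calls of members at day 6 between the knockdowns went from 5 to 3 without the variance trend, without the filter and with only the groups compared, and ranged from 1 to 5 when each library was left out in turn, with 1 left without *siNcor1* day 6 replicate 2. Calls of the change of the difference went from 2 to 1 without the trend and ranged from 1 to 4 on leaving out libraries. Day calls in *siNcor1* ranged from 3 to 6 around 5, the 3 being without *siNcor1* day 6 replicate 1, and those in the libraries labelled *siOct4* from 7 to 8 around 7. Over all genes the 148 calls at day 3 became 43 without the trend and 81 at a mean of at least 10 CPM, and leaving out libraries gave 3 to 375 there, 1398 to 4669 at day 6 (4251), 2360 to 5954 for the day in *siNcor1* (4819) and 1009 to 3667 for the change of the difference (2867).

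Uncalled values near 0 changed sign. With median centring these were *Celf2* at day 6 (0.00713), *Mbnl2* in the *siNcor1* day change (0.0368) and *Ptbp1* in the *siOct4* day change (0.0455). With quantile normalization they were *Celf2* at day 6 (0.0335), *Mbnl2* (0.202), *Mbnl3* (0.0140) and *Rbfox2* (0.0627) in the *siNcor1* day change, *Ptbp1* in the *siOct4* day change (0.146) and *Mbnl1* at day 3 (−0.0283). Without *Gm26917* they were *Mbnl1* (−0.0345) and *Celf2* (−0.00178) at day 3, *Mbnl2* (0.0716) and *Mbnl3* (0.0307) in the *siNcor1* day change and *Ptbp1* in the *siOct4* day change (0.111). Leaving out libraries gave ranges across 0 at day 3 for *Mbnl1* (−0.0443 to 0.0588), *Ptbp1* (−0.0845 to 0.0469) and *Celf2* (−0.0207 to 0.1003). At day 6 it did so for *Ptbp2* (−0.13 to 0.15), *Celf1* (−0.161 to 0.0223) and *Celf2* (−0.1495 to 0.0836), and in the *siNcor1* day change for *Mbnl2* (−0.13 to 0.12) and *Mbnl3* (−0.22 to 0.12). It also did so for *Ptbp1* in the *siOct4* day change (−0.16 to 0.11), and for *Celf1* (−0.0704 to 0.113) and *Celf2* (−0.189 to 0.0438) in the change of the difference. Quantile normalization and the totals without *Gm26917* also ended the call of *Ptbp1* in the *siNcor1* day change (adjusted p = 0.155 and 0.0697). The cause was not tested.

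Deviations of same-numbered libraries had correlations of −0.040 to 0.281, over 0.1 in 3 of 6 pairs of groups, and no label ties a number to a shared batch, so a pairing was not established. With the replicate block *Ptbp3* in the *siNcor1* day change (−0.39), *Mbnl3* in the *siOct4* day change (−0.39) and *Ptbp3* in the change of the difference (−0.58) became called, and no member lost a call.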
